A study of Mus musculus with 30 samples.

Results

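T follicular helper (TFH) cells are the CD4 T cells that help B cells inside the follicle. Libraries titled TFH were compared across 3 sort gates that differ in the level of the chemokine receptor CXCR5. Whether that title describes the cells of each gate was not tested. The members are the QuantSeq libraries that the labels title TFH, which are 8 of the 22 QuantSeq libraries and of the 30 libraries in the series. They fall into CXCR5hi (n = 3), CXCR5int (n = 2) and CXCR5lo (n = 3). All 8 came from spleens of C57BL/6 mice aged 8 weeks that carry the OTII transgene, a T cell receptor specific for ovalbumin, and all were sorted as CD4+CD45.2+ PD1+ cells at the named CXCR5 level. The labels give no immunisation, no animal, no pooling and no sort batch, so the spread behind each p-value is that between libraries and could be technical. The most like libraries are those titled TFH2, from IL-4BacTg x OTII Tg mice sorted through the same gates (n = 2 each).

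CXCR5 carries T cells toward CXCL13 in the B cell follicle, while CCR7 holds them in the T zone and S1PR1 leads them out of the tissue into blood or lymph. The factor KLF2 keeps S1pr1 on in resting T cells, and follicular cells in mice are known for low Klf2 and high Bcl6. A gate on CXCR5 thus samples cells at different points between these programs, as far as surface CXCR5 tracks them.

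QuantSeq reads 1 tag near the 3' end of each transcript, so a count stands for a transcript end and not for a length. The TFH libraries held 2.41 to 4.37 M counts and 8436 to 9900 genes with at least 10 counts. Levels below are counts per M counts of the library (CPM). Differences are log2 ratios from edgeR's quasi-likelihood test with Benjamini-Hochberg adjustment over 14383 genes. That test returns no standard error. The value after ± was derived as the absolute log2 ratio over the square root of the test's F statistic. It is approximate and unreliable where a group has few or no counts. A gene is called at an adjusted p under 0.05. Transcripts of CD4 T cells were abundant in every gate: Cd4 stood at 1075 to 1295 CPM in CXCR5hi, 1115 and 1285 CPM in CXCR5int and 894 to 1089 CPM in CXCR5lo libraries. Mitochondrially encoded transcripts took 9.11% ± 1.06 of counts in CXCR5hi and 8.25% ± 1.41 in CXCR5lo libraries (SD, n = 3 each, exact 2-sided permutation p = 0.4, where 3 against 3 allows no p under 0.1). The spread between libraries was wide, with a biological coefficient of variation of 1.26. Zeros do not show absence here, since Gapdh, which every cell uses, had 0 counts in the 3 CXCR5hi libraries and 2, 38 and 17 counts in the CXCR5lo libraries. The cause of these low Gapdh counts was not tested.

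Both receptors of the sort were checked first. Cxcr5 stood at 81.8, 134 and 96.4 CPM in CXCR5hi, 10.8 and 57.3 CPM in CXCR5int and 21.7, 12.9 and 28.1 CPM in CXCR5lo libraries. The CXCR5hi libraries lay above all CXCR5lo libraries, and the CXCR5int libraries straddled the CXCR5lo range. The log2 ratio of hi over lo was 2.31 ± 0.98 and was not called (adjusted p = 0.641). Pdcd1, which encodes PD1, stood at 223, 157 and 186 CPM in CXCR5hi, 102 and 37.1 CPM in CXCR5int and 90.7, 33.3 and 32.8 CPM in CXCR5lo libraries, again with no overlap between hi and lo (1.85 ± 0.94, adjusted p = 0.641). The gate names PD1 only as positive, and its transcript ran with the CXCR5 gate in these libraries without passing the test. Both values describe the sort and are no finding about it.

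Between CXCR5hi and CXCR5lo cells 20 genes were called, which is 0.139% of the genes tested. Of these, 16 were lower in CXCR5hi cells (0.111% of genes tested) and 4 were higher (0.0278%). At an unadjusted p under 0.05 there were 872 genes, 6.06% of those tested. The lower genes include the exit receptor S1pr1, its regulator Klf2 and the integrin chains Itga4 and Itgb7. The higher genes are Smco4, Cd52, Asb2 and Tox2. CXCR5hi and CXCR5lo libraries did not overlap for 19 of the 20, with S100a10 the exception, and for 8.96% of all genes tested. The 20 were called on that same difference, so nothing is read from their non-overlap. In bulk libraries, fewer cells with a transcript and less transcript per cell cannot be told apart.

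**Figure D1:**
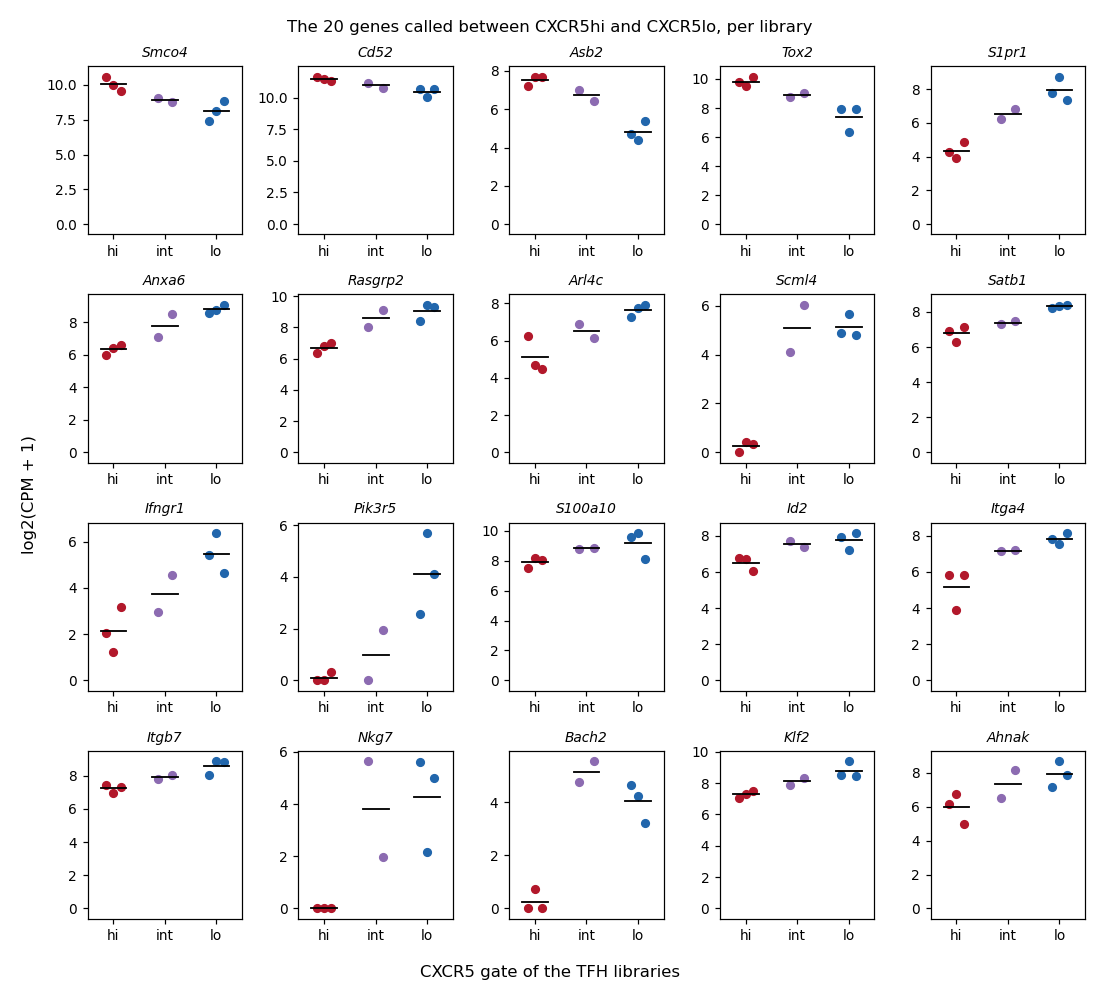
Level of each of the 20 called genes as log2(CPM + 1) in every TFH library, by gate (points are libraries, bars are gate means, each panel has its own axis from about 0). The first 4 panels are the genes higher in CXCR5hi, and the other 16 are lower there, with Scml4, Pik3r5, Nkg7 and Bach2 at or near 0 in all 3 CXCR5hi libraries.

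S1pr1 had the lowest adjusted p of this comparison. It lies on chromosome 3 (GRCm38, 115710433 to 115715072, minus strand) and encodes the sphingosine 1-phosphate receptor for exit into blood. Its level was 18.1, 14.4 and 27.8 CPM in CXCR5hi, 75.3 and 112 CPM in CXCR5int and 220, 426 and 166 CPM in CXCR5lo libraries. Every CXCR5int library lay above every CXCR5hi library and below every CXCR5lo library. The log2 ratio of hi over lo was -3.75 ± 0.47, or 13.4-fold lower (adjusted p = 6.93e-09, and 1.99e-05 or less under every alternative run).

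Klf2, on chromosome 8 (72319033 to 72321656, plus strand), stood at 130, 156 and 184 CPM in CXCR5hi, 231 and 327 CPM in CXCR5int and 369, 681 and 348 CPM in CXCR5lo libraries. It showed the same order without overlap (log2 -1.57 ± 0.37, adjusted p = 0.0298). Its call is fragile: without CXCR5lo replicate 2, which holds its highest value, the adjusted p was 0.786. The call was also lost without CXCR5hi replicate 1, 2 or 3 (adjusted p = 0.251, 0.177 and 0.0644). Itga4, the integrin alpha chain that binds VCAM1 and, with Itgb7, the gut addressin, stood at 55.0, 14.1 and 56.6 CPM in CXCR5hi, 144 and 146 CPM in CXCR5int and 227, 184 and 286 CPM in CXCR5lo libraries. The gates again did not overlap (log2 -2.47 ± 0.56, adjusted p = 0.0236, and 0.434 without CXCR5hi replicate 2). Itgb7, its partner chain, stood at 170, 122 and 162 CPM in CXCR5hi, 223 and 265 CPM in CXCR5int and 261, 472 and 462 CPM in CXCR5lo libraries. One CXCR5int library lay just above the lowest CXCR5lo library (log2 -1.40 ± 0.32, adjusted p = 0.0236). The Itgb7 call was lost without CXCR5hi replicate 1, 2 or 3 (adjusted p = 0.06, 0.293 and 0.0651). It was also lost without CXCR5lo replicate 2 or 3 (adjusted p = 0.28 and 0.143). In the fit of the TFH libraries alone and with the gate as a numeric step the adjusted p was 0.071 and 0.0617.

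The sequences before the starts of Klf2, Itgb7 and Itga4 are shown because Klf2 encodes a factor that binds CACCC boxes and all 3 were lower in CXCR5hi cells. S1pr1, the other called positioning gene, had no RefSeq window in the source used, so none is shown for it. Each line gives the 250 bases before the RefSeq start on the gene's strand (GRCm38.p6, from RefSeq), with CACCC on either strand (CACCC or GGGTG) in capitals. The windows are chr8:72318812-72319061 on the plus strand for Klf2, chr15:102231936-102232185 on the minus strand for Itgb7 and chr2:79255176-79255425 on the plus strand for Itga4.
Klf2: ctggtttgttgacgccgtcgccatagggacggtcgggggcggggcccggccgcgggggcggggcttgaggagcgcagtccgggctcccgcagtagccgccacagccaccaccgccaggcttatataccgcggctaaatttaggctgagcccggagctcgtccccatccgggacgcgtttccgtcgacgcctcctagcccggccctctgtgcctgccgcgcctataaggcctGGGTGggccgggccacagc
Itgb7: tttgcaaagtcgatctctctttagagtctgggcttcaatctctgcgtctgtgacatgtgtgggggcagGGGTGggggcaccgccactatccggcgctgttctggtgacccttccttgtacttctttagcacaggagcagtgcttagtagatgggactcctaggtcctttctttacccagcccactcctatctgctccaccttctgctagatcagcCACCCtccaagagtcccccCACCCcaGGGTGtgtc
Itga4: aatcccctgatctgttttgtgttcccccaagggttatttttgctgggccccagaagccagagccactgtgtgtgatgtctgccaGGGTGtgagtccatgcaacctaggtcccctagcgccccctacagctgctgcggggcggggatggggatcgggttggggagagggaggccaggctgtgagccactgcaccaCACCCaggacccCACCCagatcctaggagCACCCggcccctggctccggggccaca

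Klf2 holds 1 match, Itgb7 4 and Itga4 4. The RefSeq starts of Klf2 and Itgb7 lie inside the GENCODE gene spans, so their windows reach into those spans, as does 1 match of each gene. Of 32851 RefSeq windows of this length 52.0% hold at least 1 match and 21.1% hold 2 or more, so a match is common. Among the 20 called genes 15 had a RefSeq window, some with several starts. A match stood in at least 1 window of 8 of the 12 lower genes and of all 3 higher genes. That count is per gene over any of its windows (5 each for Satb1 and Tox2) and the 52.0% is per window. The shares cannot be set against each other. A match describes letters and is not a site of binding, and the 3' tags do not show which start was used.

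The list of follicle positioning and egress genes held 18 genes, all tested, of which 4 were called lower (S1pr1, Klf2, Itga4 and Itgb7), none was called higher and 14 were not called. Over all genes tested 0.111% were called lower. The list's median log2 ratio was -0.74, beside 0 over all genes tested. For 11 of the 18 the CXCR5hi libraries lay wholly below the CXCR5lo libraries, as did 4.57% of all genes tested. The 4 called genes are among these 11. The lists here and below were chosen with earlier results of these data known, so such shares are no independent test. Summed over the positioning list, called genes included, CPM were 2929 to 3404 in CXCR5hi, 3587 and 3793 in CXCR5int and 4620 to 5502 in CXCR5lo libraries, without overlap between any gates.

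Among its best known members, several missed the call. Ccr7, the T zone receptor, stood at 4.18, 16.5 and 6.01 CPM in CXCR5hi, 106 and 62.3 CPM in CXCR5int and 281, 481 and 246 CPM in CXCR5lo libraries. No gates overlapped, and the estimate was larger than for S1pr1 but less certain in the fit of all QuantSeq libraries (log2 -5.24 ± 1.44, adjusted p = 0.599). Ccr7 was called with DESeq2 (adjusted p = 0.00847) and in the edgeR fit of the TFH libraries alone, where its adjusted p of 2.15e-08 was below that of S1pr1 (7.18e-06). Selplg, the P-selectin ligand that BCL6-driven programs keep low in mouse TFH cells, stood at 161, 111 and 135 CPM in CXCR5hi, 163 and 176 CPM in CXCR5int and 329, 271 and 290 CPM in CXCR5lo libraries (log2 -1.13 ± 0.30, adjusted p = 0.137). These values place each CXCR5int library between the other gates for both genes. S1pr2, the receptor that confines cells to the germinal centre, ran the other way, at 71.3, 36.3 and 84.9 CPM in CXCR5hi, 25.0 and 14.8 CPM in CXCR5int and 0, 7.74 and 15.7 CPM in CXCR5lo libraries (log2 3.03 ± 1.56, adjusted p = 0.641). Gpr183, the oxysterol receptor EBI2, overlapped throughout (346 to 453 CPM in CXCR5hi and 247 to 478 CPM in CXCR5lo libraries, log2 0.11 ± 0.37).

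**Figure D2:**
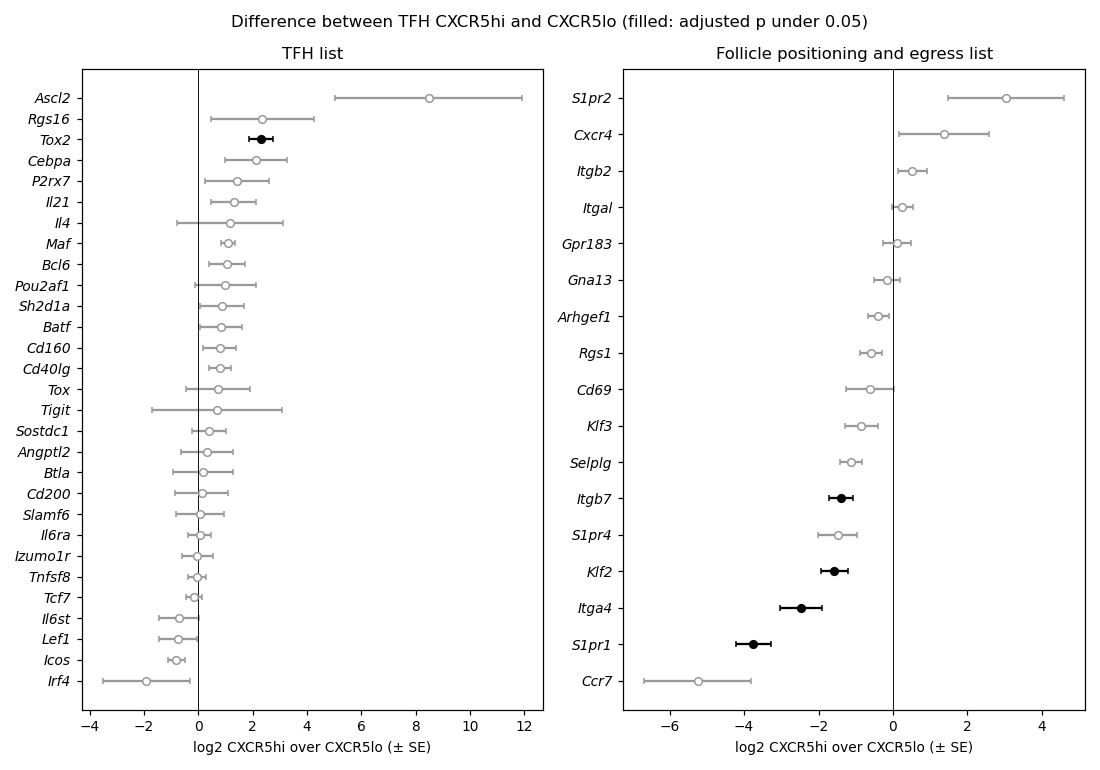
Log2 ratio of CXCR5hi over CXCR5lo ± SE for the tested genes of the TFH list (29) and for 17 of the 18 of the positioning and egress list, filled where the adjusted p was under 0.05. Only Tox2 is filled at left, and Itgb7, Klf2, Itga4 and S1pr1 are filled at right, all below 0.

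The TFH list held 30 genes, of which 29 were tested, 1 was called higher (Tox2) and 28 were not called. Over all genes tested 0.0278% were called higher. The list's median log2 ratio was 0.71, beside 0 over all genes tested. Of the 29, 22 had a positive and 7 a negative ratio, and 50.4% of all tested genes with counts in the outer gates were positive. CXCR5hi libraries lay wholly above CXCR5lo libraries for 6 of the 29 and wholly below for 3, beside 4.39% and 4.57% of all genes tested. The called Tox2 is among the 6, and the list was chosen with earlier results of these data known. Tox2, an HMG-box factor of mouse and human TFH cells, stood at 885, 726 and 1141 CPM in CXCR5hi, 438 and 515 CPM in CXCR5int and 238, 80.5 and 238 CPM in CXCR5lo libraries. The gates lay in order without overlap (log2 2.31 ± 0.46, adjusted p = 0.0279, and 0.111 without CXCR5lo replicate 3).

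Bcl6, the repressor that defines TFH cells, stood at 142, 93.4 and 126 CPM in CXCR5hi, 57.1 and 92.8 CPM in CXCR5int and 32.2, 60.1 and 80.5 CPM in CXCR5lo libraries. The transcript was present in all 8 libraries, and hi and lo did not overlap, yet the difference did not pass (log2 1.06 ± 0.65, adjusted p = 0.658). Ascl2, a factor that induces CXCR5 in mice, had 50, 50 and 40 counts in CXCR5hi, 4 and 0 counts in CXCR5int and 0 counts in all 3 CXCR5lo libraries. With 3 counts placed in each empty library it was at least 17.6-fold higher, but the adjusted p was 0.641. That bound covers counting error only and leaves out the wide spread between libraries. Maf, a driver of Il21 and Il4, missed narrowly, at 2608, 3563 and 1285 CPM in CXCR5hi, 1981 and 1545 CPM in CXCR5int and 972, 1111 and 1397 CPM in CXCR5lo libraries (log2 1.10 ± 0.25, adjusted p = 0.0623), with 1 CXCR5hi library inside the CXCR5lo range.

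Il21, the cytokine of B cell help, stood at 112, 180 and 74.7 CPM in CXCR5hi, 39.5 and 37.9 CPM in CXCR5int and 89.4, 20.2 and 39.8 CPM in CXCR5lo libraries, and the outer gates overlapped (log2 1.29 ± 0.84, adjusted p = 0.698). Icos, the costimulatory receptor that TFH cells are known for, had the opposite sign. It stood at 262, 308 and 352 CPM in CXCR5hi, 433 and 476 CPM in CXCR5int and 483, 573 and 560 CPM in CXCR5lo libraries, in order and without overlap, and was not called (log2 -0.81 ± 0.32, adjusted p = 0.641). Tcf7, which encodes the early TFH factor TCF1, overlapped between hi and lo (log2 -0.17 ± 0.30, adjusted p = 1).

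**Figure D3:**
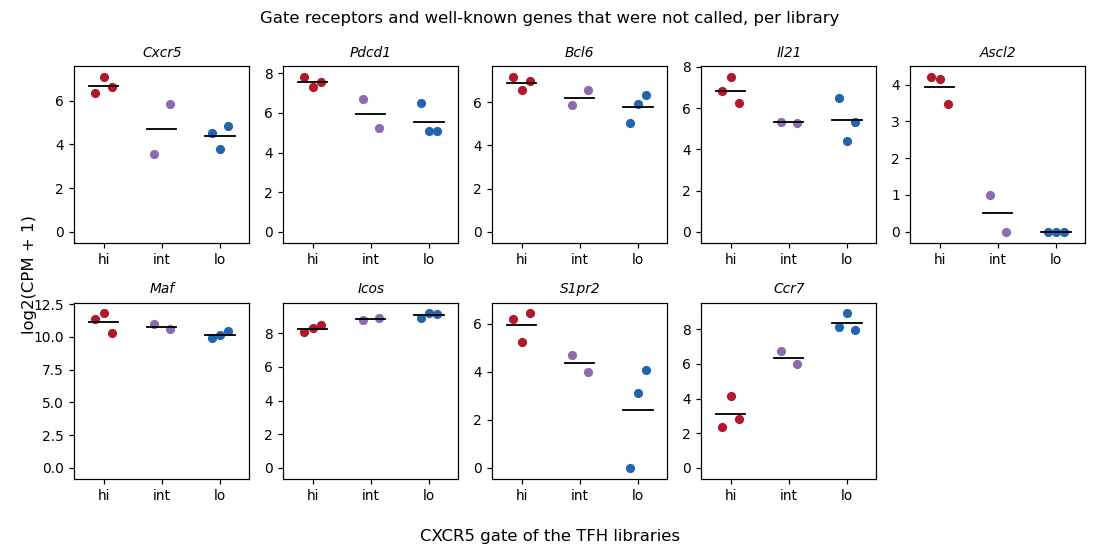
Level as log2(CPM + 1) of the gate receptors Cxcr5 and Pdcd1 and of 7 well-known genes that were not called, in every TFH library by gate (points are libraries, bars are gate means). Ccr7 and Icos are lower in CXCR5hi and the others higher, with overlap between hi and lo libraries for Il21 and Maf.

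The list of genes repressed by or opposed to Bcl6 held 15 genes, all tested, of which 4 were called lower (Id2, Klf2, Bach2 and Satb1), none higher and 11 not. Over all genes tested 0.111% were called lower. Of the 14 with counts in the outer gates, 1 had a positive and 13 a negative ratio (median log2 -1.30). Over all such genes 50.4% were positive. This list too was chosen with earlier results of these data known. Klf2 stands in 3 of the lists and Satb1, Bach2 and Id2 in 2 each, so these counts overlap. Id2, the inhibitor of E proteins that opposes TFH fate in mice, stood at 109, 106 and 64.9 CPM in CXCR5hi, 207 and 165 CPM in CXCR5int and 243, 147 and 286 CPM in CXCR5lo libraries (log2 -1.27 ± 0.28, adjusted p = 0.0168). The CXCR5int values lay inside the CXCR5lo range. The call was lost without CXCR5hi replicate 3 (adjusted p = 0.247) or without CXCR5lo replicate 3 (adjusted p = 0.208).

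Satb1, a chromatin organizer of resting and developing T cells, stood at 120, 76.2 and 143 CPM in CXCR5hi, 159 and 176 CPM in CXCR5int and 304, 323 and 338 CPM in CXCR5lo libraries. All gates were apart (log2 -1.51 ± 0.29, adjusted p = 0.0016, and 0.0885 without CXCR5hi replicate 2). Bach2, which restrains effector differentiation, had 0, 2 and 0 counts in CXCR5hi, 105 and 112 counts in CXCR5int and 90, 76 and 25 counts in CXCR5lo libraries. Here CXCR5int was highest, at 26.3 and 46.2 CPM against 24.4, 17.8 and 8.36 CPM in CXCR5lo libraries. Bach2 was 85.9-fold lower in CXCR5hi than in CXCR5lo by pooled counts, with an exact 95% counting interval of 23.4 to 714 (adjusted p = 0.0279, and 0.199 without CXCR5hi replicate 1 and 0.218 without CXCR5hi replicate 3). That interval covers counting error only and leaves out the wide spread between libraries. The Bach2 call was also lost in the fit of the TFH libraries alone (adjusted p = 0.687) and with the gate as a numeric step. Runx3, Foxo1 and Prdm1 of this list were not called (log2 -1.33 ± 0.44, -1.04 ± 0.37 and 4.74 ± 2.19, adjusted p = 0.599, 0.641 and 0.641). The Prdm1 ratio rests on 1 library, with 0, 30 and 0 counts in CXCR5hi and 0, 1 and 0 counts in CXCR5lo libraries.

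In the list of naive, memory and quiescence genes 3 of 21 were called lower (Satb1, Bach2 and Klf2), none higher and 18 not. Over all genes tested 0.111% were called lower. The list's median log2 ratio was -0.99, beside 0 over all genes tested. CXCR5hi libraries lay wholly below CXCR5lo libraries for 10 of the 21, and for 4.57% of all genes tested. The 3 called genes are among these 10, and this list too was chosen with earlier results of these data known. The summed level was 2699 to 3595 CPM in CXCR5hi, 3549 and 3747 CPM in CXCR5int and 4461 to 5831 CPM in CXCR5lo libraries. These are also markers of naive T cells, and the part of such cells in the lower levels of S1pr1, Klf2, Satb1 and Bach2 in CXCR5hi was not tested.

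Among 17 tested genes of the TH1 and cytotoxic list, Nkg7 and Id2 were called lower, none higher and 15 were not called. Over all genes tested 0.111% were called lower. Nkg7, a cytotoxic granule protein, had 0 counts in all 3 CXCR5hi libraries, 197 and 7 counts in CXCR5int and 177, 15 and 93 counts in CXCR5lo libraries. With 3 counts in each empty library it was at least 29.4-fold lower in CXCR5hi (adjusted p = 0.0255). That bound covers counting error only and leaves out the wide spread between libraries. The Nkg7 adjusted p was 0.126 to 0.177 when any CXCR5hi library was left out and 0.0517 without CXCR5lo replicate 3. Ifng had 0 counts in CXCR5hi, 3 and 0 in CXCR5int and 131, 108 and 0 in CXCR5lo libraries and was not called (adjusted p = 0.641). The sum of the 10 markers of CD8 and NK cells was lowest in CXCR5hi. It was 0 to 4.03 CPM there, 16.9 and 35.3 CPM in CXCR5int and 20.7 to 60.9 CPM in CXCR5lo libraries, so int and lo overlapped. None of the 5 tested markers was called. Of the 10, Cd8a, Ncr1 and Klra8 were at 0 in all 8 libraries, and 8, 4 and 5 of the 10 were at 0 in hi, int and lo. Their part in the Nkg7 result was not tested.

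Over all genes tested 0.111% were called lower, and of 20 tested cytokine receptors 1 was called and 19 were not. The called gene was Ifngr1, the ligand-binding chain of the interferon gamma receptor. It stood at 3.13, 1.34 and 8.02 CPM in CXCR5hi, 6.76 and 22.3 CPM in CXCR5int and 42.0, 82.1 and 23.7 CPM in CXCR5lo libraries (log2 -3.53 ± 0.68, adjusted p = 0.00259). One CXCR5int library lay inside the CXCR5hi range, and both lay below every CXCR5lo library. The call was lost in the fit of the TFH libraries alone (adjusted p = 0.701) and without CXCR5hi replicate 1 or 2 (adjusted p = 0.0536 and 0.0569).

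No gene was called in the other 25 of 31 lists. These cover other chemokine receptors, TH2, TH17 and regulatory T cell genes, inhibitory receptors, costimulation, SLAM family, STAT and SOCS genes, T cell receptor signalling, immediate early, interferon, cell cycle, lipid, glycolysis, respiratory chain, ribosomal and stress genes, and markers of B, plasma, myeloid, CD8 and NK, erythroid and CD4 T cells, besides the gate receptors. Within them 28 of 343 tested list entries, 8.16%, had an unadjusted p under 0.05, beside 6.06% of all genes tested. B cell markers summed to 251 to 306 CPM in CXCR5hi, 191 and 250 CPM in CXCR5int and 214 to 262 CPM in CXCR5lo libraries. Most of that sum was Ighm. Of the 11 tested B cell markers with counts in the outer gates, 4 had a positive and 7 a negative log2 ratio of hi over lo (median -0.38). The marker Pax5, 1 of those higher in CXCR5hi, was chosen after its values were seen and was unevenly spread over the gates. Pax5 had 143, 55 and 20 counts in CXCR5hi, 51 and 20 counts in CXCR5int and 0 counts in all 3 CXCR5lo libraries (adjusted p = 0.641; DESeq2 adjusted p = 0.0299). The B cell marker Ms4a1 had 0 counts in all 8 libraries. The part of B cells in the gate differences was not tested. Foxp3, the regulatory T cell factor, had 69 counts in CXCR5int replicate 1 and 0 in the other 7 libraries.

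Of the 20 called genes, 10 stood in no list. Anxa6, a calcium-dependent membrane-binding protein on chromosome 11 (54979108 to 55033445, minus strand), stood at 62.6, 86.0 and 98.0 CPM in CXCR5hi, 137 and 363 CPM in CXCR5int and 379, 433 and 543 CPM in CXCR5lo libraries (log2 -2.46 ± 0.33, adjusted p = 1.21e-07). Rasgrp2, the exchange factor that switches on Rap1 and so integrins, lies on chromosome 19 (6399340 to 6415216, plus strand). It stood at 80.0, 108 and 126 CPM in CXCR5hi, 255 and 558 CPM in CXCR5int and 343, 693 and 638 CPM in CXCR5lo libraries (log2 -2.41 ± 0.35, adjusted p = 1.38e-06). Both genes were low in every CXCR5hi library, and for Rasgrp2 one CXCR5int library reached into the CXCR5lo range.

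Arl4c, a small GTPase, stood at 73.8, 24.9 and 21.5 CPM in CXCR5hi, 118 and 70.5 CPM in CXCR5int and 154, 214 and 241 CPM in CXCR5lo libraries (log2 -2.34 ± 0.35, adjusted p = 2.72e-06). S100a10, the partner of annexin A2, was 2.68-fold lower (246 ± 60.1 CPM in CXCR5hi and 659 ± 338 CPM in CXCR5lo libraries, SD, n = 3 each, adjusted p = 0.0151, and 0.345 without CXCR5lo replicate 2). Its lowest CXCR5lo library, at 282 CPM, lay below the highest CXCR5hi library, at 296 CPM. Ahnak, a giant scaffold protein, was 3.84-fold lower (68.3 ± 37.2 CPM in CXCR5hi and 262 ± 136 CPM in CXCR5lo libraries, SD, n = 3 each, adjusted p = 0.0397, and 0.268 without CXCR5hi replicate 1).

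A pair of the unlisted genes were near 0 in CXCR5hi. Scml4, a Polycomb-group-like protein, had 0, 1 and 1 counts in CXCR5hi, 66 and 158 counts in CXCR5int and 106, 210 and 81 counts in CXCR5lo libraries. By pooled counts it was 178-fold lower in CXCR5hi than in CXCR5lo (exact 95% counting interval 49.1 to 1479, adjusted p = 0.000448), and the CXCR5int libraries lay on either side of the CXCR5lo range. Annotated transcripts on the opposite strand overlap Scml4, one of them Gm34006 with 355 counts over the 8 libraries against 623 for Scml4, and their reads cannot be told apart where counting ignored strand. Pik3r5, a regulatory subunit of the gamma phosphoinositide kinase, had 0, 0 and 1 counts in CXCR5hi, 0 and 7 counts in CXCR5int and 18, 218 and 49 counts in CXCR5lo libraries. It was 256-fold lower by pooled counts (interval 45.6 to 10157, adjusted p = 0.0035, and 0.0513 to 0.0591 without CXCR5hi replicate 1, CXCR5hi replicate 2 or CXCR5lo replicate 2). The call ended more clearly in the fit of the TFH libraries alone (adjusted p = 0.723) and with the gate as a numeric step (adjusted p = 0.566). The intervals for Scml4 and Pik3r5 cover counting error only and leave out the wide spread between libraries.

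The higher genes outside the lists were abundant. Smco4, a single-pass membrane protein, stood at 1539.9, 1019.7 and 766 CPM in CXCR5hi, 521 and 445 CPM in CXCR5int and 165, 279 and 460.2 CPM in CXCR5lo libraries (log2 1.88 ± 0.29, adjusted p = 1.39e-05). Cd52, a small surface glycoprotein of lymphocytes, stood at 2832 ± 363 CPM in CXCR5hi and 1432 ± 349 CPM in CXCR5lo libraries (SD, n = 3 each), 1.98-fold higher (adjusted p = 0.00466, and 0.274 without CXCR5lo replicate 2). Asb2, the substrate adaptor of an E3 ubiquitin ligase, stood at 147, 206 and 207 CPM in CXCR5hi, 126 and 86.6 CPM in CXCR5int and 25.2, 19.7 and 41.4 CPM in CXCR5lo libraries. Its gates lay in order without overlap (6.49-fold higher, adjusted p = 0.0173, and 0.0642 to 0.215 without CXCR5hi replicate 2, CXCR5lo replicate 1 or CXCR5lo replicate 2).

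Just outside the threshold stood Adgre5, an adhesion receptor (log2 -1.70 ± 0.42, adjusted p = 0.0531), Atp2b4, a plasma membrane calcium pump (adjusted p = 0.0531), and Maf. Just inside stood Ahnak and Klf2. The genes S1pr1, Anxa6, Rasgrp2, Arl4c, Smco4 and Scml4 were called whichever of the 8 TFH libraries was left out, and the other 14 were lost at least once. Scml4 was however lost in the fit of the TFH libraries alone (adjusted p = 0.0631) and with the gate as a numeric step (adjusted p = 0.566). For Itga4, Tox2, S100a10, Cd52 and Ahnak the adjusted p given above for a left-out library is the highest of several losses. DESeq2 called 83 genes (0.577% of those tested), 30 higher and 53 lower, including all 20, which are 24.1% of its calls. Fitting the TFH libraries alone gave 11 calls, 9 of them among the 20, besides Ccr7 and Lmo4, a LIM-domain protein (adjusted p = 6.32e-05 there, higher in CXCR5hi). The other 11 of the 20 had adjusted p = 0.0502 to 0.723 in that fit.

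The CXCR5int gate was placed by its own contrasts. Against CXCR5lo no gene was called with edgeR (512 genes, 3.56% of those tested, at an unadjusted p under 0.05; 38 calls, 0.264%, with DESeq2). From CXCR5hi, 5 genes (0.0348%) were called, all lower in CXCR5hi: Scml4, Rasgrp2, Bach2, S1pr1 and Anxa6 (adjusted p = 0.0026, 0.00365, 0.0203, 0.022 and 0.0306). The hi against int and hi against lo comparisons share the CXCR5hi libraries, so the overlap of these 5 with the 20 is no independent result. The smaller CXCR5int group (n = 2) also limits both contrasts.

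Where CXCR5int stood between the gates was read from gate means of log2(CPM + 1), with 0 at the CXCR5lo mean and 1 at the CXCR5hi mean. Over the 20 genes the median place was 0.41, with a range of -0.30 (Bach2) to 0.78 (Pik3r5). Scml4, at 0.01, stood with CXCR5lo. Asb2 and Tox2, at 0.70 and 0.62, stood nearer CXCR5hi. For 19 of the 20 the CXCR5int mean lay between the others, as for 26.6% of all genes tested, though genes chosen for a large gap between hi and lo leave more room between them. Both CXCR5int libraries lay strictly between the outer gates for S1pr1, Anxa6, Satb1, Cd52, Asb2, Itga4, Tox2 and Klf2, 8 of the 20, and for 0.431% of all genes. Such an order needs outer gates that do not overlap, which the call nearly fixes. Among all genes whose outer gates did not overlap it held for 4.81%, and these include genes with far smaller gaps, so nothing is read from the 8.

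Departure from the straight line between the outer gates depended on the tool. CXCR5int was set against the midpoint of hi and lo on the log scale. With edgeR 0 genes were called (lowest adjusted p = 0.595), and 758 genes, 5.27%, had an unadjusted p under 0.05. DESeq2 called 36 (0.25%), with CXCR5int above the midpoint for 5 and below it for 31. Scml4 and Bach2 of the 20 were among the 5 (adjusted p = 0.0232 and 0.0489). Both had 0 to 2 counts in every CXCR5hi library, so their midpoints rest on a group with almost no counts. The midpoint contrast does not use the hi minus lo difference.

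**Figure D4:**
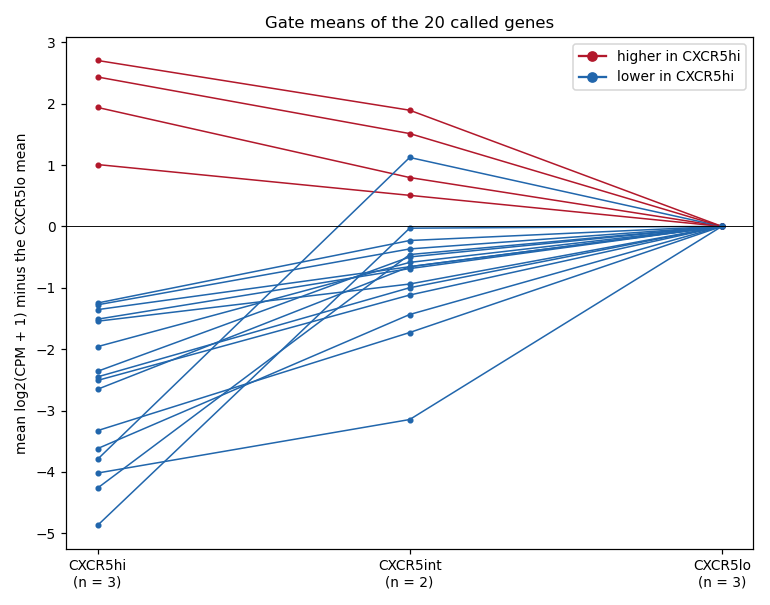
Gate means of log2(CPM + 1) for the 20 called genes, each less its CXCR5lo mean, in CXCR5hi (n = 3), CXCR5int (n = 2) and CXCR5lo (n = 3) libraries, with 1 line per gene. Of the lines, 19 pass CXCR5int between their ends, and Bach2 lies above its CXCR5lo mean there.

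The TFH2 libraries, which share no library with the TFH gates, gave a second view of the same genes. It is not independent, since the TFH2 libraries stood in the fit that called the 20 genes. Their spread thus entered those calls. Of the 20 genes, 18 had the same sign of hi minus lo in TFH2 cells, as did 48.4% of all genes tested and 59.4% of the 3209 genes with a mean of at least 50 CPM. TFH2 hi and lo libraries did not overlap, in the same direction, for 17 of the 20. That reads against 15.6% of all genes wholly higher and 12.1% wholly lower in the smaller TFH2 groups (n = 2 each). Called in TFH2 cells were 22 genes (0.153% of those tested), and 7 were shared: Anxa6, Rasgrp2, Arl4c, Smco4, Id2, Klf2 and Ahnak, which are 35% of the TFH calls and 31.8% of the TFH2 calls.

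Tox2 stood at 842 and 868 CPM in TFH2 CXCR5hi, 494 and 601 CPM in TFH2 CXCR5int and 125 and 190 CPM in TFH2 CXCR5lo libraries (log2 2.44 ± 0.56, adjusted p = 0.0948), close in size to the TFH difference. Klf2 stood at 43.9 and 25.6 CPM in TFH2 CXCR5hi, 176 and 172 CPM in TFH2 CXCR5int and 161 and 175 CPM in TFH2 CXCR5lo libraries (log2 -2.27 ± 0.47, adjusted p = 0.00493). For Klf2 the TFH2 CXCR5int libraries stood with CXCR5lo. S1pr1 stood at 15.0 and 49.8 CPM in TFH2 CXCR5hi, 60.8 and 62.0 CPM in TFH2 CXCR5int and 74.2 and 104 CPM in TFH2 CXCR5lo libraries (log2 -1.45 ± 0.53, adjusted p = 0.737).

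Pik3r5 had the opposite sign in TFH2 cells (log2 1.18 ± 1.31, adjusted p = 1), and Bach2 had 0 counts in both outer TFH2 gates. The difference between the TFH and TFH2 gate effects was itself tested. Over all genes 2 were called for it (0.0139%), and 5.47% had an unadjusted p under 0.05. None of the 20 genes was called (lowest adjusted p = 0.208, for Pik3r5), and 6 had an unadjusted p under 0.05. For S1pr1 the TFH effect exceeded the TFH2 effect by log2 -2.29 ± 0.68 (adjusted p = 0.908). TFH and TFH2 libraries also differed in Y-linked Ddx3y, at 0 counts in all 8 TFH libraries and at 48.8 to 98.9 CPM in the TFH2 libraries, so genotype and the sex of the mice cannot be told apart in this comparison.

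**Figure D5:**
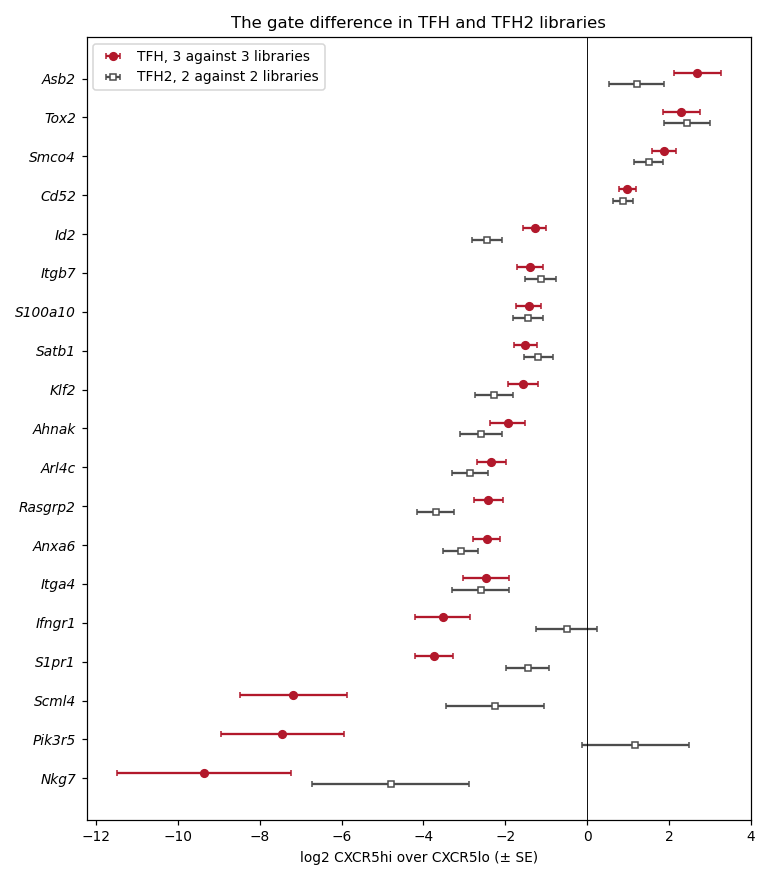
Log2 ratio of CXCR5hi over CXCR5lo ± SE for 19 of the 20 called genes in TFH (filled, upper) and TFH2 libraries (open, lower), leaving out Bach2, which had no TFH2 counts in the outer gates. All but Pik3r5 lie on the same side of 0 in both, and the fitted ratios of Scml4, Pik3r5 and Nkg7 rest on groups with 0 to 2 counts.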

How the data were processed

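Gene expression was measured by 3' QuantSeq (Lexogen kit, 10 ng of total RNA per library, per the labels) in 22 libraries, 8 of them TFH. The deposited values are whole counts per gene. The submitters' processing notes name featureCounts 1.6.0, STAR 2.7.0c and Bowtie 0.12.2, with mm9, mm10 and GRCm38.p6 as builds. Their roles for these counts, and any use of strand, are not given in the sources used here. Gene names and coordinates came from GENCODE M21 (GRCm38), and 93 of 55573 identifiers, with 0.0062% of counts, had no name there.

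Counts were fitted with edgeR 4.0.16 in R 4.3.3 over all 22 QuantSeq libraries as 9 groups without covariates (TMM factors 0.931 to 1.08, filterByExpr with a minimum count of 10 and total of 15, robust quasi-likelihood, 13 residual degrees of freedom). CPM use TMM-scaled library sizes. Replicates are numbered in accession order. They were not copies of each other (chi-square per degree of freedom 40.2 to 56.1 over 7 pairs). Bounds place 3 counts in each empty library, and bounds and exact intervals cover counting error only. Alternatives were RLE factors, no filter, a stricter filter, DESeq2 1.42.0, the TFH libraries alone, the gate as a numeric step and leaving out each library.

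The libraries, gene lists and tests were chosen with earlier results of these data known. Genes named are both gate receptors, all called genes, the called and best known members of the TFH and positioning lists, and called genes of the other lists and contrasts. The 8 RNA-seq libraries were not used here. The values of 1 gene that stands in the positioning list and in the list of naive, memory and quiescence genes are not reported here, though both lists' counts and sums include it.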

Additional observations from a re-analysis of the deposited data

Results flagged for a closer look

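The gate difference of TFH cells differed from that of TFH2 cells by the test of the difference itself for 2 genes, 0.0139% of those tested. Fam3c, a secreted cytokine-like protein, stood at 11.5, 125 and 39.3 CPM in TFH CXCR5hi and 52.5, 75.3 and 65.8 CPM in TFH CXCR5lo libraries, and at 92.7 and 42.0 CPM in TFH2 CXCR5hi libraries with 0 counts in both TFH2 CXCR5lo libraries (log2 difference of differences -10.80, adjusted p = 0.000327). Smad5, a transducer of BMP signals, stood at 5.91, 41.0 and 15.8 CPM in TFH CXCR5hi and 23.3, 53.0 and 80.5 CPM in TFH CXCR5lo libraries, and at 46.8 and 7.47 CPM in TFH2 CXCR5hi libraries, again with 0 counts in both TFH2 CXCR5lo libraries (-10.67, adjusted p = 0.0331). In both genes the TFH gates overlapped, and the fitted size depends on the empty TFH2 group, so it is no bound. The 2 TFH2 CXCR5lo libraries held 2.84 and 1.83 M counts.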

How the results depend on the processing

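No paired analysis was possible because the labels give no replicate numbers that the gates share. Calls between TFH CXCR5hi and CXCR5lo (20) numbered 83 with DESeq2, 33 without a filter, 13 with the gate as a numeric step and 11 in the TFH libraries alone, and 13 to 36 when a library was left out (13 without CXCR5hi replicate 1, 35 and 36 without CXCR5int replicate 1 or 2, where a lone CXCR5int library widens the filter and is assumed to vary like the other groups). RLE factors gave 19 and the stricter filter 16. CXCR5int against CXCR5lo (0) gave 38 with DESeq2 and 0 to 5 with a library left out, and CXCR5int against the midpoint (0) gave 36 and 0 to 7. CXCR5hi against CXCR5int (5) gave 42 with DESeq2, 10 without a filter, 2 in the TFH libraries alone, 1 under the stricter filter and 4 to 17 with a library left out. The difference between TFH and TFH2 gate effects (2) gave 35 with DESeq2, 4 without a filter, 1 under the stricter filter and 1 to 43 with a library left out (43 without TFH2 CXCR5lo replicate 1). The TFH2 comparison (22), whose alternatives were chosen after seeing the data, gave 127 with DESeq2, 36 without a filter, 44 in the TFH and TFH2 libraries alone and 17 to 111 with a library left out (111 without TFH2 CXCR5lo replicate 1). The cause of these shifts was not tested. For the 20 called genes, 280 values under alternatives held 215 on the same side of the threshold, 65 that missed it and 0 reversed. At these depths a transcript with few copies can be missed in a whole gate, so counts of 0 set only bounds.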
